A study of Mus musculus with 10 samples.

Results

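The genes described here carry the nerve signal that starts saliva flow into the gland cell. They are 9 of the 55291 genes in the table: the muscarinic receptors Chrm1 and Chrm3, the adrenergic receptors Adrb1 and Adra1a, the VIP (vasoactive intestinal peptide) receptor Vipr1, the calcium release channels Itpr2 and Itpr3, and the calcium entry genes Stim1 and Orai1. They were chosen by name for these roles. All 9 were in the table, and 8 passed the filter for the genome-wide test (at least 1 FPKM in at least 5 libraries); Chrm1 did not.

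RNA was sequenced from whole submandibular glands of C57BL/6J mice, 8 weeks old, 7 days after surgery. In the ligated group (5 libraries) the right-side duct was ligated proximally and distally. In the sham group (5 libraries) surgery stopped at an incision and dissection of the gland. The question was how obstruction changes gene expression in the gland. No mutant allele or drug is named for either group. The mice are labelled female, yet all 10 libraries held at least 0.770 FPKM of each of Uty, Kdm5d, Eif2s3y and Ddx3y, which are Y-linked, and at most 0.0267 FPKM of Xist.

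In salivary glands, acetylcholine from parasympathetic nerves acts on muscarinic receptors and noradrenaline from sympathetic nerves on adrenergic receptors. Muscarinic and alpha-1 receptors work through Gq and phospholipase C, which makes inositol trisphosphate and opens calcium channels (Itpr genes) in the endoplasmic reticulum. STIM1 senses the emptied store and opens the ORAI1 pore in the plasma membrane, and the calcium signal drives fluid secretion. Beta-adrenergic and VIP receptors raise cyclic AMP and mainly drive the release of stored protein.

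The libraries held between 12105738 and 17305591 reads assigned to genes, as worked out from the values. Of these, 20 to 79 fell on Chrm1 in each library and between 127 and 2439 on each of the other 8 genes. The summed FPKM of 11 acinar markers was 12212 to 61672 in ligated glands and 143766 to 271385 in sham glands, and 9 of the 11 were called lower. Smgc, Dcpp1, Dcpp2 and Dcpp3 were at 0 in ligated 4, where Mucl2 (16547 FPKM) and Prol1 (10736 FPKM) made most of the sum. For 8 markers of the granular convoluted tubule it was 6574 to 55855 in ligated glands and 41027 to 84745 in sham glands. Some acinar and tubule transcripts were thus found in every library. Some libraries held transcripts of neighbouring tissue. The sum of 10 lymphocyte and lymph node markers was 224 to 316 FPKM in ligated 1, 2 and 3 and 346 FPKM in sham 1, against 7.29 to 9.45 FPKM in ligated 4 and 5 and 0.702 to 4.38 FPKM in the other sham libraries. Bpifa2, a parotid product, was at 16877 to 34754 FPKM in ligated 2, 3 and 5 and 14814 FPKM in sham 1, and at 949 FPKM or less elsewhere. Of 6 listed parotid markers, Amy1, Prb1 and Cst10 were also highest in these libraries. Pip and Car6 were not, and both were called lower in ligated glands. Car6 was at 8728 to 18095 FPKM in sham glands. The sum of the 6 did not set these libraries apart (24218 FPKM in ligated 2, 24277 FPKM in sham 2). For some of the 9 genes, results are therefore also given without the 4 libraries with lymph node transcripts. They are also given without the 4 with high Bpifa2, called the libraries with parotid transcripts. The test of Chrm1 was run without the lymph node set only.

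Promoter sequences are shown for the pairs whose balance is described further on. They are the 250 bases before the RefSeq start on GRCm38.p6, read 5′ to 3′ on the strand of the gene, with GC boxes (GGGCGG on either strand, the letters bound by Sp1) in capitals. The windows are chr5:123014824-123015073 (plus strand) for Orai1, chr7:102267569-102267818 (plus strand) for Stim1, chr17:27057054-27057303 (plus strand) for Itpr3 and chr6:146502224-146502473 (minus strand) for Itpr2.
Orai1: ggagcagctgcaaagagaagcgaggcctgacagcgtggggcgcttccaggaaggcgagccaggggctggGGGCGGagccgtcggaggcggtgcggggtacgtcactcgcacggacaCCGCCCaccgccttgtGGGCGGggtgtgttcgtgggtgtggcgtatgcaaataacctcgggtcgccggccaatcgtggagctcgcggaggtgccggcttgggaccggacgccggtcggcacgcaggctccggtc
Stim1: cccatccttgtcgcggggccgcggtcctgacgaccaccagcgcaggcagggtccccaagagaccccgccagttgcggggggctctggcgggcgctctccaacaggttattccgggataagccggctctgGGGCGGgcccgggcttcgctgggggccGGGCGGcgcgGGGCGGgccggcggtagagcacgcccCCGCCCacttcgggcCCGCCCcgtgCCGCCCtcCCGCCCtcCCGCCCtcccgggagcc
Itpr3: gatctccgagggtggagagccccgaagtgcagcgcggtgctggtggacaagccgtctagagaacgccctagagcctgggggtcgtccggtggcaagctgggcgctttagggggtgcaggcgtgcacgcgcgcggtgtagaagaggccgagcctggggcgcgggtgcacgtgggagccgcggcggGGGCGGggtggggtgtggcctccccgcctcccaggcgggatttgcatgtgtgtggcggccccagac
Itpr2: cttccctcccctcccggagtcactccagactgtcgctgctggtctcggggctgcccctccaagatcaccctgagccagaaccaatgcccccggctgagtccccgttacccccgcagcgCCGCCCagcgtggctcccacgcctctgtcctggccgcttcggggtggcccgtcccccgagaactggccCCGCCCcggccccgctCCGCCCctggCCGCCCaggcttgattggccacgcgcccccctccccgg
RefSeq promoters were matched for 7 of the 9 genes. GC boxes numbered 3 in Orai1, 8 in Stim1, 1 in Itpr3 and 4 in Itpr2, and 32.7% of 32851 promoter windows of this length held at least 1. All 4 windows were rich in G and C, with 70.8% in Orai1, 78.4% in Stim1, 72.0% in Itpr3 and 74.4% in Itpr2, against a median of 52.4% over all windows. The NFAT core GGAAA, found on either strand in 55.6% of windows, was in none of these 4. These counts describe the letters in the windows.

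On the deposited scale the channel genes Orai1 and Itpr3 rose after ligation by the adjusted p, while the 5 receptor genes had lower means in ligated glands and the 4 of them that were tested did not pass. Orai1 averaged 15.9 ± 2.00 FPKM in ligated glands and 9.96 ± 1.29 FPKM in sham glands (SD, n = 5 each), a 1.60-fold difference. Itpr3 averaged 16.9 ± 2.67 FPKM in ligated glands and 10.001 ± 3.77 FPKM in sham glands, a 1.69-fold difference. Stim1, Itpr2 and Chrm3 differed by less than the spread between libraries. On the scale of log2(FPKM + 1), limma with Benjamini-Hochberg adjustment over 11856 genes called 0 of the 8 tested genes higher and 0 lower, where a call needs an adjusted p under 0.05 and a log2 change of at least 1 in size. Over all genes, 17.1% were called higher and 1.16% lower. At an unadjusted p under 0.05, 3 of the 8 passed (66.2% of all genes), and voom on recovered reads called 3 lower (4.59% of all genes) and 0 higher (10.8% of all genes). By the adjusted p alone 2 passed, Orai1 and Itpr3, both higher, beside 56.8% of all genes that were higher and 3.35% that were lower by this rule. The median log2 change of the 8 genes was -0.15, beside 0.53 for all genes tested. In whole-gland RNA, fewer cells of a type and less RNA per cell cannot be told apart.

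**Figure D1:**
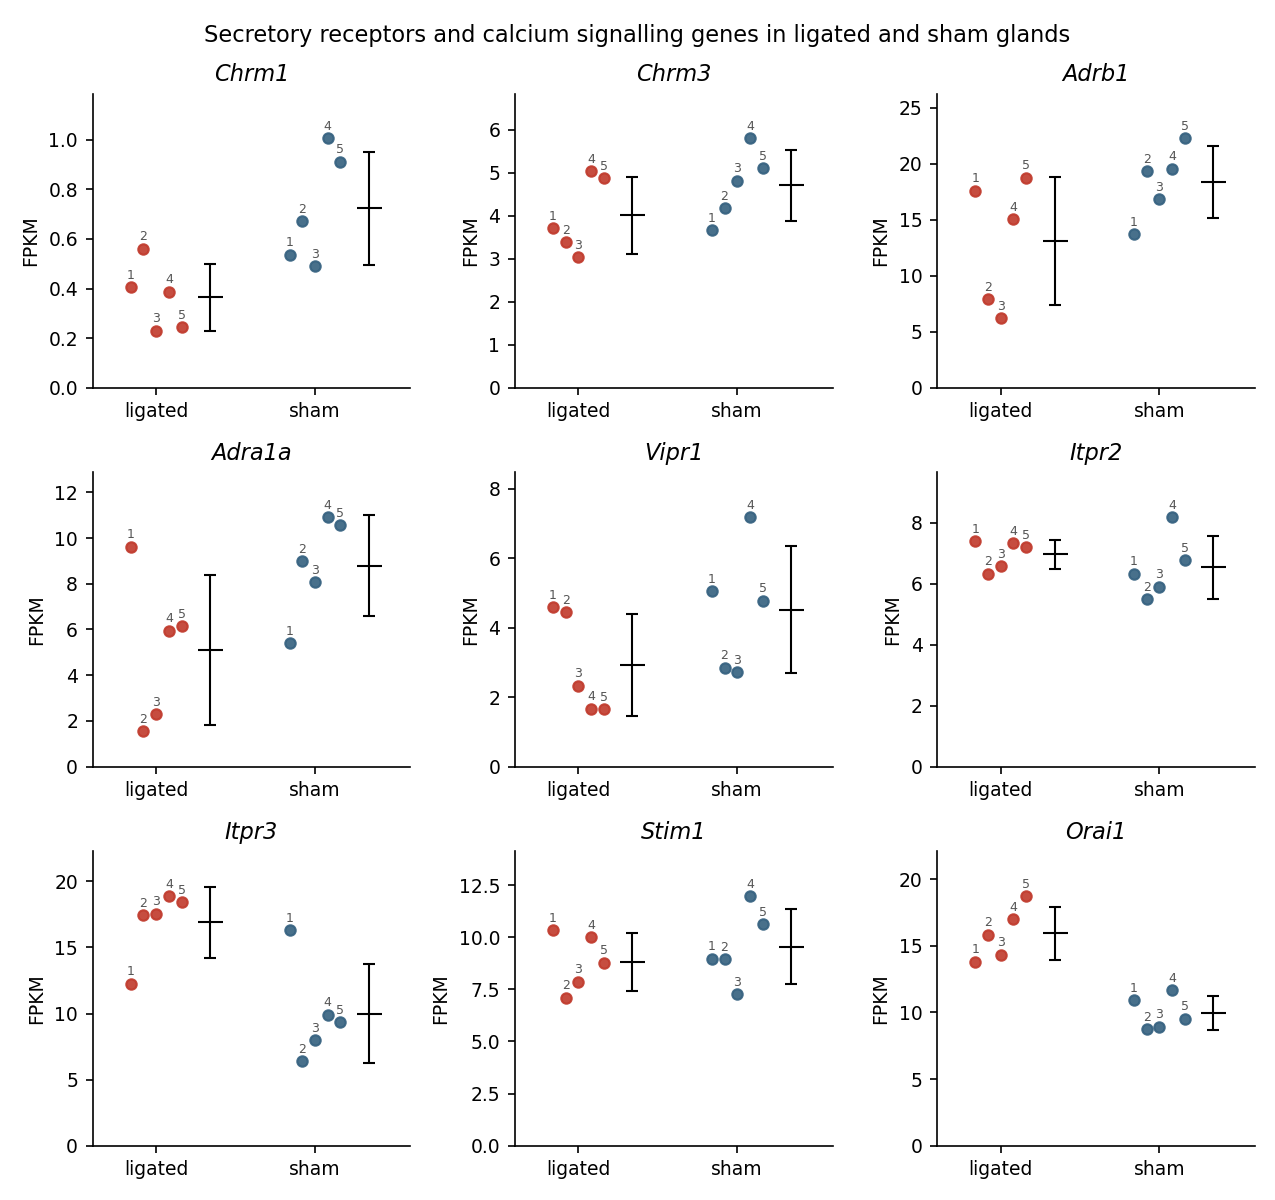
FPKM of each of the 9 genes (vertical axes, linear from 0) in ligated and sham glands. Each point is 1 library with its replicate number, and the bar beside each group is the mean ± SD (n = 5). The groups are apart for Orai1 only; for Itpr3, sham 1 lies among the ligated libraries, and for Adra1a and Adrb1, ligated 2 and 3 lie lowest.

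The muscarinic receptors stood low in the order of levels, with Chrm1 below all the others. Chrm3, the main receptor for acetylcholine-driven secretion in salivary glands (ENSMUSG00000046159.16, chromosome 13 at 9875486 to 10360847 on GRCm38), was at 3.71, 3.38, 3.04, 5.03 and 4.88 FPKM in ligated 1 to 5. In sham 1 to 5 it was at 3.66, 4.18, 4.81, 5.80 and 5.10 FPKM. The groups overlapped through most of their range, and the log2 change was -0.20 ± 0.16 (SE; limma, adjusted p = 0.293). Chrm1, the second muscarinic receptor of salivary tissue (ENSMUSG00000032773.9, chromosome 19 at 8663789 to 8683587), was at 0.406, 0.561, 0.230, 0.387 and 0.244 FPKM in ligated 1 to 5. In sham 1 to 5 it was at 0.536, 0.673, 0.490, 1.01 and 0.912 FPKM. Only ligated 2 reached into the sham range, and sham 1 and 3 lay below it. The mean was 0.366 ± 0.135 FPKM in ligated glands and 0.723 ± 0.228 FPKM in sham glands (SD, n = 5 each). Chrm1 was below the filter, and an exact permutation test of its log2(FPKM + 1) gave a difference of -0.33 (two-sided, p = 0.0238, not adjusted; the smallest p this design can give is 0.00794). With the filter at 0.1 FPKM, limma gave Chrm1 an adjusted p of 0.0378, and with no filter 0.0657. With as few as 20 reads in a library, its level carries a wide counting error. Of the other muscarinic genes, Chrm5 was at 0 in all libraries, and Chrm2 and Chrm4 were at 0.688 FPKM or less.

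The adrenergic receptors varied widely among the ligated glands. Adrb1, the beta-1 receptor through which noradrenaline raises cyclic AMP (ENSMUSG00000035283.5, chromosome 19 at 56722199 to 56733113), was at 17.6, 7.89, 6.20, 15.1 and 18.8 FPKM in ligated 1 to 5. In sham 1 to 5 it was at 13.7, 19.3, 16.9, 19.6 and 22.3 FPKM. Ligated 2 and 3 lay below every sham library, and the other ligated libraries lay within the sham range. Its log2 change was -0.55 ± 0.28 (limma, adjusted p = 0.109; range over 20 alternatives 0.0188 to 0.913). It was -0.34 without ligated 3, -0.20 without the 4 libraries with lymph node transcripts and -0.24 without the 4 with parotid transcripts. Adra1a, the alpha-1A receptor (ENSMUSG00000045875.13, chromosome 14 at 66635251 to 66771168), was at 9.61, 1.55, 2.28, 5.95 and 6.14 FPKM in ligated 1 to 5. In sham 1 to 5 it was at 5.41, 8.97, 8.08, 10.9 and 10.6 FPKM. Again ligated 2 and 3 were the lowest, ligated 1 was as high as the sham libraries, and sham 1 was the lowest sham library. The log2 change was -0.84 ± 0.36 (limma, adjusted p = 0.0660). Without ligated 1 it was -1.08 and passed as a call (adjusted p = 0.0193), and without sham 1 it was -0.98 (adjusted p = 0.0392; range over 20 alternatives 0.0193 to 0.314). Without the 4 libraries with parotid transcripts it was -0.30 (adjusted p = 0.298), with ligated 1 and 4 as the only ligated libraries left, and without the 4 with lymph node transcripts it was -0.59 (adjusted p = 0.0209).

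Alpha-adrenergic stimulation is known to discharge the granular convoluted tubule, the duct segment of the mouse submandibular gland that stores kallikreins and growth factors. After the group mean was subtracted, genes whose log2(FPKM + 1) closely followed Adra1a over the 10 libraries included Bcl2l14 (Pearson r = 0.97) and Sec14l4 (0.97). For Adrb1 the closest were Galc (0.98), Sec14l4 (0.98) and Atp13a5 (0.98). Adra1a and Adrb1 followed each other with r = 0.92. These correlations are descriptions over 10 libraries that share depth and tissue makeup, with the closest genes picked from all tested. The closest gene was Pkp4 for Chrm3 (0.98), Crebl2 for Vipr1 (0.94), Stub1 for Itpr2 (0.98), Ddx20 for Itpr3 (0.99), Slc25a16 for Stim1 (0.98) and Tpra1 for Orai1 (0.96). Among the 8 genes themselves, Itpr2 and Stim1 followed each other with r = 0.84 and Itpr3 and Orai1 with r = 0.68. Like Adra1a and Adrb1, the summed tubule markers were lowest in ligated 2 and 3 (7310 and 6574 FPKM) and, among sham libraries, in sham 1 (41027 FPKM). The same held for the summed acinar markers, so this pattern is not particular to the tubule. Their sum was 12212 and 13136 FPKM in ligated 2 and 3 and 143766 FPKM in sham 1. The sum of 8 striated duct and ionocyte markers was 73.0 and 45.9 FPKM in ligated 2 and 3, against 157 to 215 FPKM in the other ligated libraries and 120 to 265 FPKM in sham glands. The part of tissue makeup in the adrenergic values was not tested.

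Vipr1, which encodes a receptor for the parasympathetic peptide VIP (ENSMUSG00000032528.5, chromosome 9 at 121642716 to 121672954), ran differently from the adrenergic genes. It was at 4.59, 4.46, 2.33, 1.67 and 1.65 FPKM in ligated 1 to 5 and at 5.05, 2.85, 2.72, 7.18 and 4.78 FPKM in sham 1 to 5. Here ligated 3, 4 and 5 lay below every sham library, and ligated 1 and 2 lay among the sham libraries. The log2 change was -0.50 ± 0.29 (limma, adjusted p = 0.146). Without the 4 libraries with lymph node transcripts it was -0.94 (adjusted p = 0.0290; range over 20 alternatives 0.00727 to 0.783). Its r with Adra1a was -0.06 and with Adrb1 -0.13 over the 10 libraries.

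Among the release channels, on the deposited scale the type 3 receptor stood higher after ligation and the type 2 receptor kept near its sham level. Both are channels of the endoplasmic reticulum that inositol trisphosphate opens, and in mouse exocrine glands either can largely stand in for the other. Itpr3 (ENSMUSG00000042644.9, chromosome 17 at 27057304 to 27122223) was at 12.3, 17.5, 17.5, 18.9 and 18.4 FPKM in ligated 1 to 5 and at 16.3, 6.41, 8.01, 9.92 and 9.36 FPKM in sham 1 to 5. Sham 1 exceeded ligated 1, and all other ligated libraries lay above all sham libraries. The log2 change was 0.75 ± 0.22 (limma, adjusted p = 0.0133). It was 0.93 without sham 1 (adjusted p = 0.000873) and 1.08 without sham 1 and ligated 1, 2 and 3, the libraries holding lymph node transcripts, where it passed as a call (adjusted p = 0.00226; range over 20 alternatives 0.000873 to 0.482). Ligated 1 also had the highest acinar and tubule marker sums of the ligated libraries (61672 and 55855 FPKM). The part of lymphocytes or of secretory cells in the Itpr3 values was not tested. Itpr2 (ENSMUSG00000030287.15, chromosome 6 at 146108299 to 146502223) was at 7.39, 6.33, 6.58, 7.34 and 7.19 FPKM in ligated 1 to 5 and at 6.33, 5.49, 5.91, 8.18 and 6.77 FPKM in sham 1 to 5. All ligated values lay inside the sham range, with a log2 change of 0.09 ± 0.12 (limma, adjusted p = 0.534, range over 20 alternatives 0.00805 to 0.809).

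Of the entry genes, Orai1 alone had groups apart on the deposited scale. The pore gene Orai1 (ENSMUSG00000049686.14, chromosome 5 at 123015074 to 123030456) was at 13.8, 15.8, 14.3, 17.0 and 18.7 FPKM in ligated 1 to 5 and at 10.9, 8.72, 8.94, 11.7 and 9.54 FPKM in sham 1 to 5. Every ligated library lay above every sham library, as for 30.2% of all tested genes. The log2 change was 0.63 ± 0.13 (limma, adjusted p = 0.00284, range over 20 alternatives 0.000453 to 0.887). Without the 4 libraries with lymph node transcripts it was 0.82 (limma, adjusted p = 0.00492). Without the 4 with parotid transcripts it was 0.62 (limma, adjusted p = 0.0406). The sensor gene Stim1 (ENSMUSG00000030987.5, chromosome 7 at 102267806 to 102437319) was at 10.3, 7.10, 7.87, 9.98 and 8.77 FPKM in ligated 1 to 5 and at 8.97, 8.93, 7.26, 12.0 and 10.6 FPKM in sham 1 to 5. The ranges overlapped, with sham 4 and 5 above every ligated library and ligated 2 below every sham library. The log2 change was -0.10 ± 0.15 (limma, adjusted p = 0.574). Isoforms were not separated in these values, and the genes that overlap the 9 in GENCODE M21 were at 0.535 FPKM or less.

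The order of levels per length also differed between the groups. In ligated glands the means ran Itpr3, Orai1, Adrb1 (13.1 FPKM), Stim1 (8.81), Itpr2 (6.97), Adra1a (5.11), Chrm3 (4.01), Vipr1 (2.94) and Chrm1. In sham glands they ran Adrb1 (18.4 FPKM), Itpr3, Orai1, Stim1 (9.55), Adra1a (8.79), Itpr2 (6.53), Chrm3 (4.71), Vipr1 (4.52) and Chrm1. In both groups the ranges of each neighbouring pair overlapped, except that Vipr1 and Chrm1 were apart.

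How much each gene moved depended on how the libraries were scaled. A few secretory transcripts took most of the sum in sham glands (the 20 highest genes held 24.9% to 47.5% in ligated and 54.1% to 76.3% in sham glands), and the median gene was 0.53 higher in ligated glands on the log2 scale. Median-ratio scaling, which sets the median gene equal between libraries (a median of 0.01), turned the picture of these genes. Orai1 and Itpr3 then differed by 0.02 ± 0.10 and 0.15 ± 0.15 (limma, adjusted p = 0.887 and 0.482), so that neither passed, where 7.09% of all genes were called higher. Adra1a (-1.38 ± 0.39, adjusted p = 0.0222) and Adrb1 (-1.16 ± 0.31, adjusted p = 0.0188) were called lower, 2 of 8 where 3.97% of all genes were called lower. By the adjusted p alone 6 of 8 were lower (16.1% of all genes), adding Vipr1 (-0.99), Chrm3 (-0.73), Stim1 (-0.69) and Itpr2 (-0.48). On scaled values the groups of Orai1 overlapped, while those of Stim1, Itpr2 and Vipr1 were apart and lower in ligated glands, 3 of 8 where 8.81% of all genes were. They were apart in Chrm1 too. In Chrm1 the exact test on scaled values gave -0.55 (two-sided, p = 0.00794, the smallest it can give). With each library brought to the same sum, Orai1 (1.15) and Itpr3 (1.27) were called higher instead, 2 of 8 where 46.7% of all genes were called higher, and none of the 8 was called lower. Over the same libraries as deposited, the sum of 8 epithelial markers was 895 to 3445 FPKM in ligated glands and 621 to 1066 FPKM in sham glands, and 3 of the 8 were called higher. The list was mixed, and Krt8 and Krt18 made most of the highest sum (1236 and 1380 FPKM in ligated 4). Esrp1 was lower and Epcam higher by the adjusted p but not the fold (limma, -0.69 and 0.77, adjusted p = 0.0230 and 0.0486). Cldn3, Cldn7 and Grhl2 did not pass (limma, adjusted p = 0.282, 0.236 and 0.0808). The part of epithelial content in these values was not tested.

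**Figure D2:**
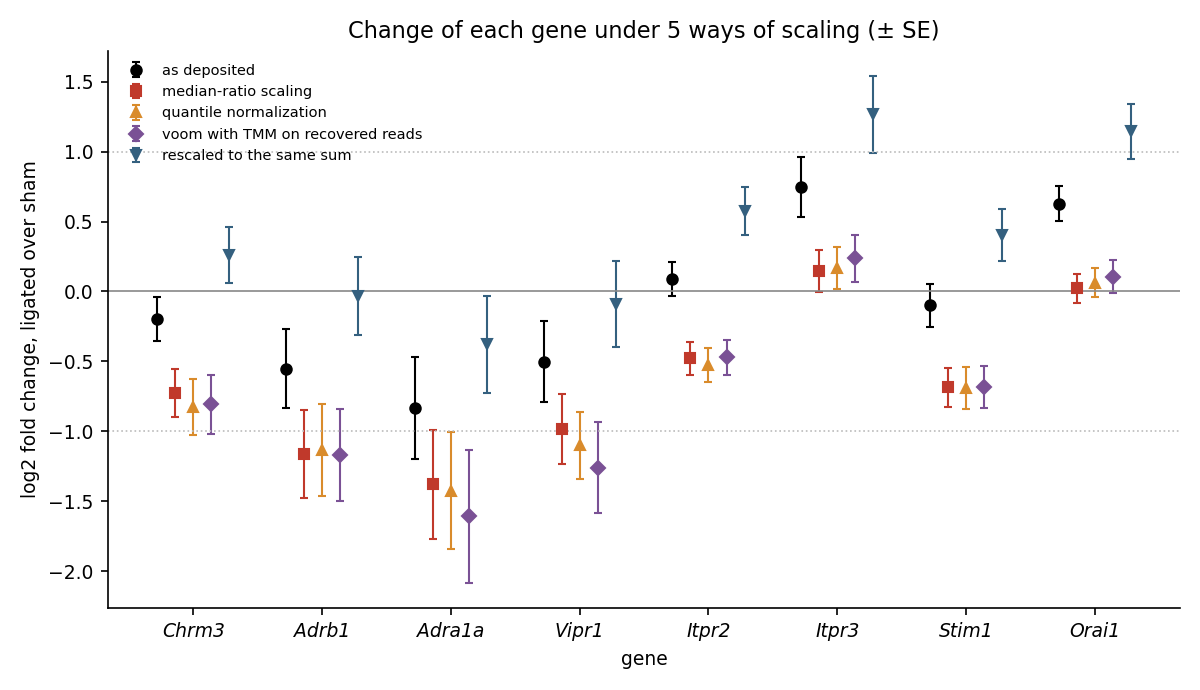
Log2 fold change, ligated over sham, with its SE for the 8 tested genes under 5 ways of scaling the libraries (limma; n = 5 each). Dotted lines mark a change of 1 in size. All genes shift together with the scaling, and Orai1 and Itpr3 stay above the other 6 in each scaling.

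A ratio of 2 genes within a library does not depend on the scaling, apart from a pseudocount of 0.1 in its test, so 4 ratios paired by role were compared. Orai1 to Stim1, the pore over the sensor, was 1.34, 2.23, 1.82, 1.71 and 2.13 in ligated 1 to 5 and 1.22, 0.976, 1.23, 0.978 and 0.898 in sham 1 to 5. All 5 ligated libraries lay above all 5 sham libraries. The mean was 1.85 ± 0.357 in ligated glands and 1.06 ± 0.153 in sham glands (SD, n = 5 each), and the difference on the log2 scale was 0.78 (exact permutation test, two-sided, p = 0.00794; adjusted over the 4 ratios p = 0.0317). Without any one of ligated 2 to 5 or sham 2 to 5 the adjusted p was 0.0635, with a raw p of 0.0159, the smallest that 4 against 5 can give. Itpr3 to Itpr2 was 1.66, 2.76, 2.67, 2.57 and 2.56 in ligated 1 to 5 and 2.58, 1.17, 1.36, 1.21 and 1.38 in sham 1 to 5. Sham 1 lay among the ligated libraries and ligated 1 nearest to the other sham libraries. The log2 difference was 0.70 (exact permutation test, p = 0.0317, adjusted p = 0.0635), and without sham 1 it was 0.91 (adjusted p = 0.0317; range over the alternatives 0.0317 to 0.267). Chrm3 to Chrm1 averaged 12.3 ± 5.23 in ligated glands and 6.84 ± 1.73 in sham glands (exact permutation test, n = 5 each, p = 0.0794, adjusted p = 0.0873). Adrb1 to Adra1a averaged 3.04 ± 1.23 in ligated glands and 2.14 ± 0.264 in sham glands (exact permutation test, n = 5 each, p = 0.0873, adjusted p = 0.0873). Neither of these passed. The log2 difference of Adrb1 to Adra1a was 0.42 and depended on single libraries: it was 0.57 without ligated 1 (adjusted p = 0.0317), 0.22 without ligated 2 (adjusted p = 0.175) and 0.08 without the 4 libraries with parotid transcripts (adjusted p = 0.533, the highest of the alternatives). That of Chrm3 to Chrm1 was 0.59, with 0.14 at a pseudocount of 1 and 1.05 once the libraries with lymph node transcripts were left out (range of the adjusted p over the alternatives 0.0635 to 0.389).

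**Figure D3:**
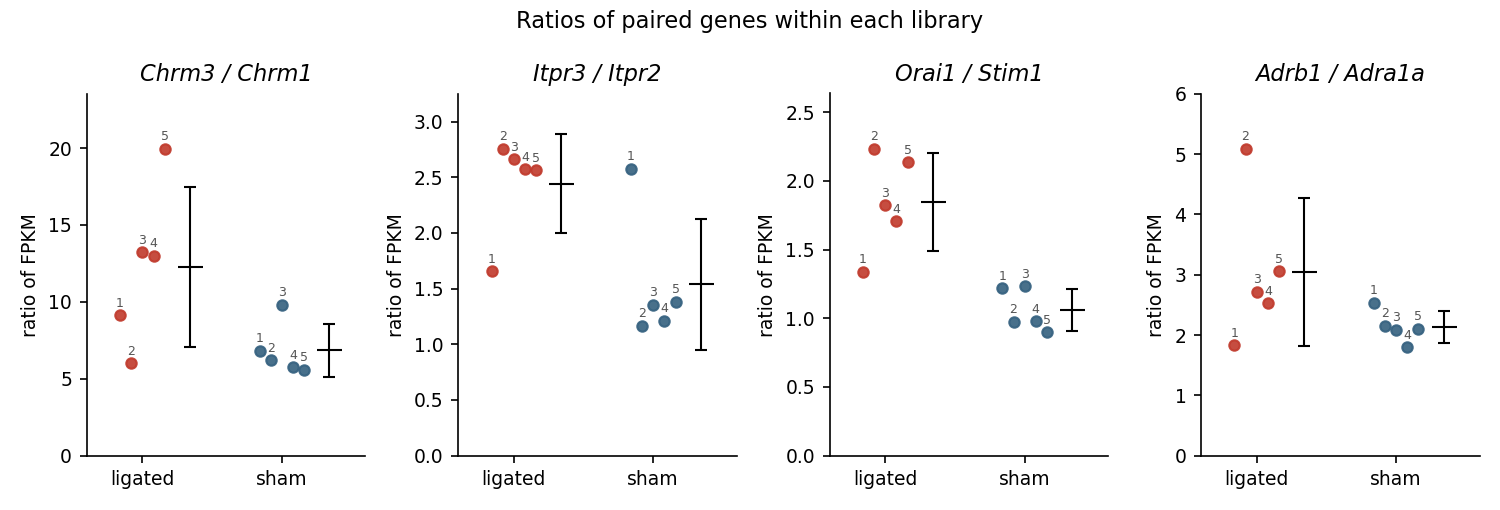
Ratio of FPKM of 4 gene pairs within each library, linear from 0, for ligated and sham glands. Points are libraries with their replicate number, bars the mean ± SD (n = 5). The ligated libraries lie above the sham libraries in Orai1 / Stim1, while in Itpr3 / Itpr2 sham 1 and ligated 1 stand apart from their groups.

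Other genes of the same signalling steps were read from 8 lists chosen by role. A gene can pass the filter through the ligated libraries alone, and the counts cover only the genes that passed it. Among the called genes named below, P2ry2, Adra2a, Nfatc4 and Atp2a1 passed in this way, with no sham library at 1 FPKM. Their p-values, and the medians of their lists, are therefore not free of the filter. All changes given for them are log2 changes on the log2(FPKM + 1) scale by limma. Genes of these lists that did not pass are named as close relatives of the 9 or of a called gene, after their values were seen. Of 25 other receptors for nerve and paracrine signals, 9 passed the filter, 5 were higher and 0 lower, with a median of 1.33 (0.53 over all genes). For each list, the shares over all genes are 17.1% called higher and 1.16% lower, or 7.09% higher and 3.97% lower after median-ratio scaling. P2ry2, which encodes a receptor for extracellular nucleotides, was at 3.50 ± 1.55 FPKM in ligated glands and 0.512 ± 0.173 FPKM in sham glands (1.51, adjusted p = 0.000472). Calcrl, a subunit of the CGRP (calcitonin gene-related peptide) and adrenomedullin receptors that endothelium also expresses, was higher (1.43, adjusted p = 0.00481). So were the alpha-adrenergic receptors Adra1d (1.38, adjusted p = 0.00186) and Adra2a (1.38, adjusted p = 0.000805). Quantile normalization ended the calls of P2ry2, Calcrl and Adra1d. Calcrl was at 3.77 FPKM in sham 1, above ligated 4 (2.87 FPKM), and at 0.391 to 1.25 FPKM in the other sham libraries. In the same libraries the sum of 7 endothelial markers was 58.7 to 93.0 FPKM in ligated glands and 17.3 to 44.3 FPKM in sham glands, and its part in these values was not tested.

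Among 19 genes of the Gq and phospholipase C step, 16 passed the filter, 9 were higher (17.1% of all genes) and 0 lower, with a median of 1.19. The 4 largest changes were in Rgs genes, whose proteins shorten G protein signals: Rgs16 (2.19, adjusted p = 0.000832), Rgs5 (1.83, adjusted p = 0.00113), Rgs2 (1.77, adjusted p = 0.00485) and Rgs4 (1.39, adjusted p = 0.00109), whose call quantile normalization ended. Rgs16 was at 2.37 to 9.16 FPKM in ligated glands and 0 to 1.45 FPKM in sham glands. Rgs2 was at 6.50 FPKM in sham 1, above ligated 1 (5.59 FPKM) and ligated 4 (5.96 FPKM). In the other sham libraries it was at 0.999 to 1.78 FPKM. Rgs5 marks pericytes in many tissues. The sum of 8 macrophage markers was 1166 to 2019 FPKM in ligated glands and 160 to 570 FPKM in sham glands, and all 8 were called higher; their part in this list and in the NFAT list was not tested. After median-ratio scaling the count on this list was 4 higher (7.09% of all genes) and 1 lower (3.97%). The G protein genes Gnaq (0.35, adjusted p = 0.0775) and Gna11 (0.03, adjusted p = 0.856) did not pass. Of 26 genes of the cyclic AMP arm, 24 passed the filter, 6 were higher (17.1% of all genes) and 1 lower, with a median of 0.53, the same to 2 decimals as that of all genes. The adenylyl cyclases Adcy7 (2.24), Adcy3 (1.41) and Adcy4 (1.38) and the kinase subunit Prkar2b (1.31) were the largest rises, of which only Adcy7 held after median-ratio scaling. Adcy7 was at 12.0 to 23.2 FPKM in ligated glands, against 9.07 FPKM in sham 1 and 1.62 to 2.21 FPKM in the other sham libraries. Prkar2b was at 39.3 FPKM in ligated 4, 27.1 FPKM in ligated 3 and 8.73 to 20.6 FPKM in the other ligated libraries, against 5.24 to 9.24 FPKM in sham glands. The sum of 7 adipocyte markers was 816 FPKM in ligated 4, 506 FPKM in ligated 3 and 205 to 388 FPKM in the other ligated libraries, against 0.431 to 16.2 FPKM in sham glands, and that of 7 fibroblast markers was 1044 to 5019 FPKM in ligated glands and 134 to 241 FPKM in sham glands. All 14 were called higher, and their part in these values was not tested. The gene called lower, named after its values were seen, was Rapgef3, which encodes the cyclic AMP sensor EPAC1. It averaged 3.68 ± 1.85 FPKM in ligated glands and 10.1 ± 2.13 FPKM in sham glands (-1.30, adjusted p = 0.00173). After median-ratio scaling the list held 1 higher and 2 lower. Rescaling to the same sum, or leaving out the 4 libraries with parotid transcripts, ended the call of Rapgef3.

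Of 19 other genes of store release and entry, 13 passed the filter, 3 were higher (17.1% of all genes) and 0 lower, with a median of 0.31. Esyt1, which tethers the endoplasmic reticulum to the plasma membrane, changed by 1.40 (adjusted p = 0.00569), the lysosomal channel gene Tpcn2 by 1.05 (adjusted p = 0.000378) and Orai2, a relative of Orai1, by 1.01 (adjusted p = 0.0383). All 3 calls were lost after median-ratio scaling, that of Tpcn2 also without ligated 2, and that of Orai2 without ligated 1, 2 or 3 or sham 2, 3, 4 or 5, or once the 4 libraries with lymph node transcripts were left out. Orai2 was at 3.59 to 4.61 FPKM in ligated 1, 2 and 3 and 4.11 FPKM in sham 1, all with lymph node transcripts, against 1.33 and 1.91 FPKM in ligated 4 and 5 and 0.428 to 0.618 FPKM in the other sham libraries. The part of lymphocytes in these values was not tested. Esyt1 was at 16.7 FPKM in sham 1, above ligated 4 (13.4 FPKM) and ligated 5 (13.9 FPKM), and at 3.75 to 5.23 FPKM in the other sham libraries. The third release channel Itpr1 (0.10, adjusted p = 0.545) and the second sensor Stim2 (0.31, adjusted p = 0.123) did not pass.

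Genes of calcium removal moved in both directions. Of 19 genes of removal and mitochondrial uptake, 12 passed the filter, 5 were higher and 1 lower, with a median of 0.64. The lower gene was Atp2a3, which encodes the calcium pump SERCA3 of the endoplasmic reticulum. It was at 341, 127, 124, 235 and 205 FPKM in ligated 1 to 5 and at 368, 450, 488, 596 and 600 FPKM in sham 1 to 5. All ligated libraries lay below all sham libraries (1.12% of all genes), and the change was -1.36 ± 0.29 (limma, adjusted p = 0.00345). Its call was lost with libraries rescaled to the same sum and without the 4 libraries with parotid transcripts. The related pump gene Atp2a2 averaged 95.9 ± 13.7 FPKM in ligated glands and 85.0 ± 10.9 FPKM in sham glands and did not pass (0.17, adjusted p = 0.316). Mcub, a subunit of the mitochondrial calcium uniporter that lowers its flux, was at 5.24 to 8.57 FPKM in ligated glands and 0.812 to 1.76 FPKM in sham glands (1.83, adjusted p = 7.69e-05), and passed in all 20 alternatives. Atp2b4, a calcium pump of the plasma membrane, changed by 1.19 (adjusted p = 0.00049), a call lost after median-ratio scaling and quantile normalization. Atp2a1, the calcium pump of skeletal muscle, was at 2.78 to 77.1 FPKM in ligated glands and 0.0474 FPKM or less in sham glands and changed by 4.61 (adjusted p = 0.000381), a call lost with voom on recovered reads. The sum of 8 skeletal muscle markers, Atp2a1 among them, was 29.3 to 688 FPKM in ligated glands and 1.78 to 4.01 FPKM in sham glands, and the part of muscle in the Atp2a1 value was not tested.

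Of 23 genes of calmodulin, calcineurin and NFAT, which carry the calcium signal to transcription, 20 passed the filter, 5 were higher (17.1% of all genes) and 0 lower, with a median of 0.71. Nfatc1 (1.55, adjusted p = 0.00697), Prkcb (1.35, adjusted p = 0.0479), Nfatc4 (1.34, adjusted p = 0.000567) and Nfatc2 (1.24, adjusted p = 0.00461) led it. Median-ratio scaling left 2 calls, both higher, and with quantile normalization 0 were higher. The call of Prkcb was also lost without ligated 1, 2 or 3 or sham 2, 3, 4 or 5, or once the 4 libraries with lymph node transcripts were left out. In these 4 it was at 5.67 to 7.62 FPKM (ligated 1, 2 and 3) and 7.40 FPKM (sham 1), against 1.53 and 2.40 FPKM in ligated 4 and 5 and 0.334 to 0.619 FPKM in the other sham libraries. Nfatc1 was at 10.4 FPKM in sham 1 and 1.68 to 2.58 FPKM in the other sham libraries, and sham 1 is the sham library with lymph node transcripts. Nfatc2 was at 3.30 FPKM in sham 1, above ligated 1 and 4 (2.86 FPKM each). In the other sham libraries it was at 0.554 to 0.877 FPKM. Of 9 calcium-gated channels, 5 passed the filter, 1 was higher and 0 lower, with a median of 0.14. The higher gene was Ano6, which encodes a lipid scramblase (1.55, adjusted p = 0.000484), a call lost with quantile normalization. Ano1, the chloride channel that starts fluid secretion in acinar cells, did not pass (0.24, adjusted p = 0.430). Kcnn4, a calcium-gated potassium channel named after its values were seen, averaged 38.1 ± 9.30 FPKM in ligated glands and 66.5 ± 17.4 FPKM in sham glands. It passed by the adjusted p but not the fold (-0.78, adjusted p = 0.00977). After median-ratio scaling Kcnn4 was called lower (-1.42, adjusted p = 0.00214), so that the list then held 1 higher and 1 lower.

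Of 20 genes of nerves and their transmitters, 4 passed the filter and limma called 0 higher and 0 lower, with a median of 0.55. At an unadjusted p under 0.05, 2 of the 4 passed (66.2% of all genes), and voom called 0. The highest was Nos1, at 8.17 ± 4.27 FPKM in ligated glands and 8.74 ± 1.81 FPKM in sham glands (-0.21, adjusted p = 0.567). Gap43, a protein of growing nerve endings, averaged 1.78 ± 0.359 FPKM in ligated glands and 0.567 ± 0.517 FPKM in sham glands. It passed by the adjusted p but not the fold (limma, 0.88, adjusted p = 0.00744), where 56.8% of all genes were higher by the adjusted p alone. After median-ratio scaling, quantile normalization or voom, 0 of the 4 passed by the adjusted p. Th, the enzyme that starts noradrenaline synthesis, was at 0 in all libraries, and Chat, which makes acetylcholine, at 0 in all ligated libraries and at 0.0658 FPKM or less in sham libraries. Others below the filter went both ways. Npy was at 0.503 to 1.23 FPKM in ligated glands and at 0 in all sham libraries. Slc6a2 averaged 0.235 FPKM in ligated glands and 0.818 FPKM in sham glands. Nerve supply was not tested by these values. The sum of 6 Schwann cell markers was 45.8 to 64.4 FPKM in ligated glands and 36.4 to 60.5 FPKM in sham glands, most of it from Sox10, which salivary epithelium also expresses.

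**Figure D4:**
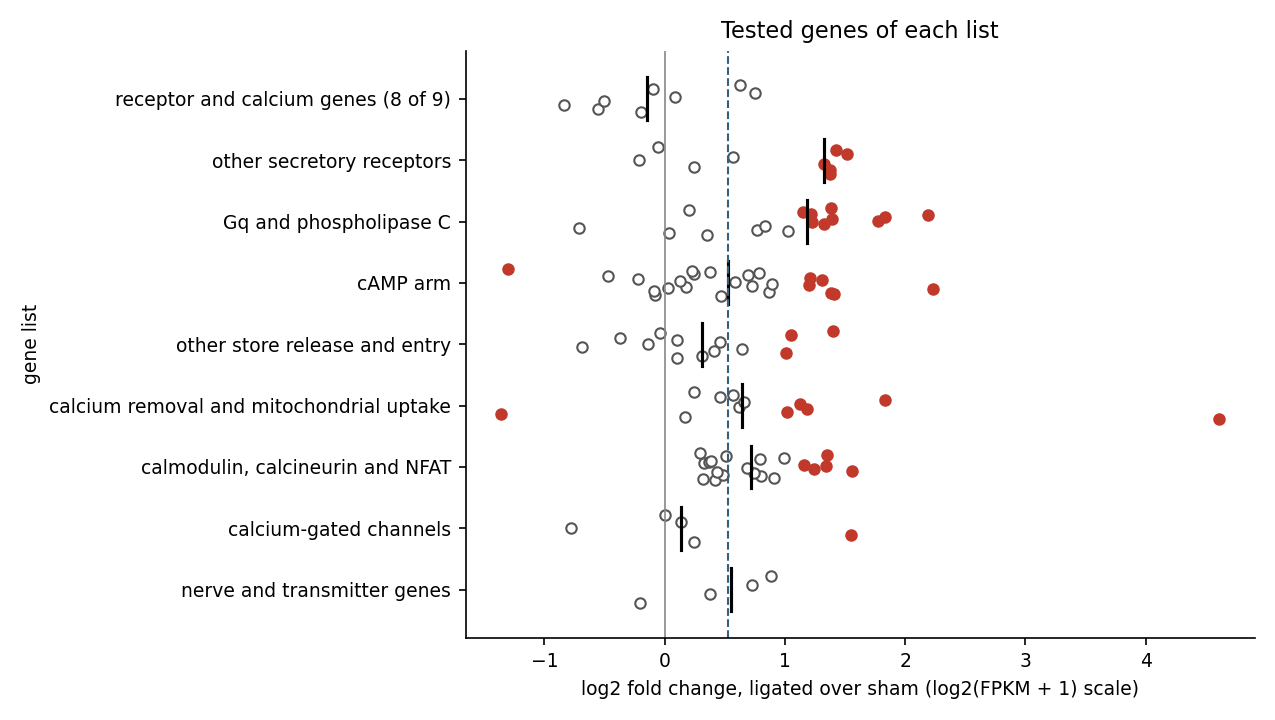
Log2 fold change, ligated over sham, of the tested genes of the described set (8 of 9) and of 8 lists of the same signalling steps. Filled points were called (adjusted p under 0.05 and a change of at least 1 in size), open points were not, short black lines are list medians, and the dashed line is the median of all 11856 genes (0.53). The described genes have no filled point, and Atp2a3 and Rapgef3 are the filled points below 0.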

How the data were processed

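RNA sequencing values were deposited by the authors as FPKM (fragments scaled by exon length and library total), 1 column per library, for 55291 genes; all 10 columns matched a sample title. Reads were placed on GRCm38 (mm10), per the submitters' processing notes. Aligner, counter and annotation: not given in the sources used here. These 9 genes, the gene lists and the marker lists were chosen with earlier results of these data known. Beyond the 9 genes, the genes named were the up to 4 called genes with the largest change in each pathway list, or the most abundant where none was called, and the 3 closest by correlation; others are marked, and some genes that meet these rules are not reported here.

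The 11856 genes that reached 1 FPKM in 5 or more of the 10 libraries were tested as log2(FPKM + 1) with limma 3.58.1 (R 4.3.3, variances moderated along a trend with mean level) and Benjamini-Hochberg adjustment. Ratios used a pseudocount of 0.1 and exact two-sided permutation tests (scipy 1.17.1). The labels do not say that libraries are separate litters or runs, so p-values measure the spread between these libraries. In simulated data on 11856 genes, 89% of 100 genes changed by 1.5 (log2), 98% of 100 genes changed by 3 and 2 of 11656 unchanged genes were called. The changed genes were drawn from those with a mean log2(FPKM + 1) above 3, so lower genes, among them Adra1a, Itpr2, Chrm3 and Vipr1, were not covered. No shift shared by all genes was simulated, such as the median of 0.53 in these data, so these shares do not apply to calls under such a shift. Reads were recovered from FPKM with GENCODE M21 exon lengths (96.2% of symbols); below 200 reads, 98.3% to 98.4% came out whole within 0.01. A recovered unit can be 1 read or 1 pair of reads. Counting error alone sets a floor of 3 reads, at most 0.248 FPKM for a transcript of 1 kb. Alternatives were other pseudocounts, filters and scalings, a replicate block, voom on recovered reads, each library left out, and, added after the data were seen, the libraries with lymph node or parotid transcripts left out. Promoter sequences are from RefSeq (GRCm38.p6). Figures were drawn with matplotlib 3.10.9.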

Additional observations from a re-analysis of the deposited data

Results flagged for a closer look

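In 26 groups of 5 libraries, the gap of the highest or lowest library to its nearest neighbour was compared with the range of the group, with a critical share of 0.71. Chance alone marks about 1 group in 20. Itpr3 in ligated 1, at 12.3 FPKM, stood below the other ligated libraries. The ratio of Itpr3 to Itpr2 stood apart in ligated 1, at 1.66, the lowest ligated library, and in sham 1, at 2.58, the highest sham library.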

How the results depend on the processing

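The count of genes called, 2169 as deposited, was 1311 after median-ratio scaling, 1228 after quantile normalization and 5596 after rescaling to the same sum, and 1857 to 2892 with 1 library left out. Of the 8 tested genes, 0 were called as deposited, 2 after median-ratio scaling, 3 after quantile normalization, 3 with voom, 2 at the same sum, 1 without the lymph node libraries and 0 to 1 with 1 library left out. Directions turned for Itpr2 (-0.48 after median-ratio scaling, -0.53 after quantile normalization, -0.47 with voom), for Stim1 (0.40 at the same sum, 0.081 without the parotid libraries) and for Chrm3 (0.26 at the same sum, 0.0024 without the lymph node libraries). The cause was not tested, beyond that the scalings shift all genes together. The Orai1 to Stim1 difference was 0.91 without the lymph node libraries and 0.57 without the parotid libraries, where 2 against 4 cannot pass. Leaving out 1 library gave 0.71 to 0.89 for Orai1 to Stim1, 0.62 to 0.91 for Itpr3 to Itpr2, 0.22 to 0.57 for Adrb1 to Adra1a, 0.42 to 0.78 for Chrm3 to Chrm1 and -0.38 to -0.27 for Chrm1. Itpr3 to Itpr2 passed with a pseudocount of 1 (0.66). Chrm1 was -0.42 without the lymph node libraries and could not pass there.

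No label pairs the libraries by replicate number. Deviations of same-numbered libraries correlated between -0.38 and 0.58, which cannot exclude pairing. Ligated 5 and sham 5 (0.58) were each closest to the other. Ligated 1 was closest to sham 1 and sham 4 to ligated 4, but not in return. With the replicate block, 2203 genes were called, and the Orai1 to Stim1 difference of 0.78 had an adjusted p of 0.167, with 0.0625 the smallest raw p for 5 pairs.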
